A study of Mus musculus with 6 samples.

Results

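The 34 genes described here encode the enzymes and regulators of glycolysis, the enzymes that handle its end products pyruvate and lactate, the pentose phosphate pathway, and the hypoxia factor HIF-1α with some of its targets. They were chosen by gene symbol out of the 29940 genes of a messenger RNA table of colon organoids treated with tumour necrosis factor (TNF) and untreated organoids (Ctrl). All 34 symbols were found, and all 34 genes reached the mean of 1 FPKM over the 6 libraries that was required for testing (fragments per kilobase of exon, divided by the size of the library, a level that can be compared between genes). Of them, 13 are enzymes of glycolysis, 2 set the level of the phosphofructokinase activator fructose 2,6-bisphosphate, 5 handle lactate or pyruvate, 6 are enzymes of the pentose phosphate pathway and 8 are HIF-1α and hypoxia genes.

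Glycolysis splits glucose into pyruvate, which either enters the mitochondria or is reduced to lactate and exported from the cell. The oxidative arm of the pentose phosphate pathway draws glucose 6-phosphate off and yields NADPH and ribose phosphate. HIF-1α protein is destroyed when oxygen is plentiful, by way of prolyl hydroxylases that mark it, and at low oxygen it switches on genes of glycolysis, lactate export and further targets. The colon epithelium lies between blood and an almost oxygen-free lumen, and its surface cells normally draw much of their energy from butyrate made by bacteria.

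Crypts from the colon of C57BL/6J mice, a common inbred strain, were set in Matrigel, a gel of basement membrane proteins, where they grow into closed epithelial bodies. After 2 days in culture the organoids were kept for a further 24 hours with TNFα, an inflammatory cytokine (TNF, 3 libraries), or without it (Ctrl, 3 libraries; the title of the series calls these vehicle-treated). The sources used here give neither the dose of TNF nor the age and sex of the mice. The labels do not say whether replicate libraries stem from different cultures or mice, so p-values measure only the spread between these libraries, which may be technical.

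The libraries held about 28100000 to 32200000 reads, as estimated from the smallest deposited values, so that 1 FPKM in a transcript of 1 kilobase stood for 28.1 to 32.2 reads. The 8 epithelial markers all stood at a mean of at least 167 FPKM and summed to 3964 to 4236 FPKM in TNF and 3594 to 3920 FPKM in Ctrl, with Krt8 (log2 change 0.28), Krt18 (0.25) and Krt19 (0.39) higher and Lgals4 lower (-0.23). The 5 colon and intestine identity markers stood at a mean of 61.8 FPKM or more. The summed level of the identity markers was 1382 to 1421 FPKM in TNF libraries and 1872 to 2188 FPKM in Ctrl libraries, and 2 of the 5 (Cdx2 and Car1) were lower with TNF. Most of the gap between the sums came from Car1, which averaged 840 FPKM in TNF and 1492 FPKM in Ctrl. Cdx1, Muc2 and Krt20 were not called, and their groups overlapped. The 6 endothelial markers, none of which reached the level for testing, summed to 1.04 to 1.06 FPKM in TNF and 0.243 to 0.935 FPKM in Ctrl, without overlap, with Kdr, Tek and Emcn at 0 in Ctrl 2 and Emcn also in Ctrl 3. The 8 fibroblast markers, of which 4 were tested, summed to 6.16 to 8.01 FPKM in TNF and 6.85 to 11.5 FPKM in Ctrl. Among them Thy1 was higher and Col1a1 and Col3a1 were lower. Thy1 averaged 2.60 FPKM in TNF and 0.682 FPKM in Ctrl, and reached the level for testing only through its TNF libraries. The 7 markers of dividing cells summed to 329 to 349 FPKM in TNF and 332 to 340 FPKM in Ctrl, with Plk1 lower. The 10 macrophage and leukocyte markers, of which 4 were tested and none was called, summed to 14.4 to 36.5 FPKM in TNF and 18.6 to 36.7 FPKM in Ctrl. Among those too low for testing, Ptprc had 0.382, 0.377 and 0.374 FPKM in TNF and 0.198, 0.146 and 0.194 FPKM in Ctrl, without overlap. The groups of the others too low for testing (Adgre1, Csf1r, Itgam, C1qc and Cd52) overlapped. Lyz2 alone stood at 15.8, 15.7 and 2.72 FPKM in TNF and at 4.65, 16.01 and 15.6 FPKM in Ctrl. The part of other cell types in the members' changes was not tested. In bulk RNA, a change in the number of cells of a type cannot be told apart from a change in RNA per cell.

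With TNF, 5 of the 34 genes rose and 1 fell. The genes that rose were Hk1 and Hk2, the hexokinases that trap glucose in the cell, Pfkfb3, which makes the activator of phosphofructokinase, Ldhb, the B chain of lactate dehydrogenase, and Pgd, the NADPH-forming 6-phosphogluconate dehydrogenase. Pgls, the lactonase that acts just before Pgd, fell. None of the 8 hypoxia genes passed the test. The share called higher was 14.7% of the members against 12.9% of all 12350 tested genes, and the share called lower was 2.94% against 11.1%. The test was limma on log2(FPKM + 1), two-sided, with Benjamini-Hochberg adjustment over all tested genes at 0.05. A log2 change below is a difference on that scale, which understates the change of genes with low levels.

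**Figure D1:**
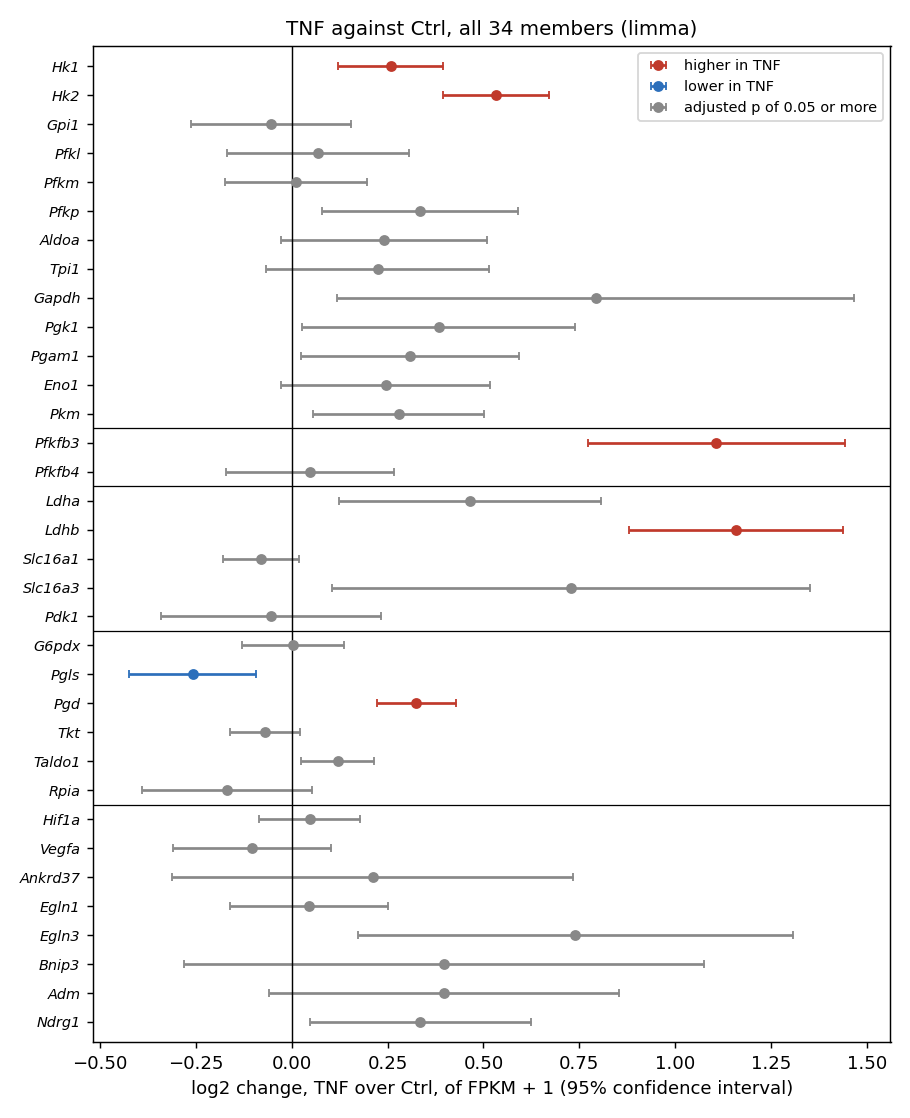
Log2 change (TNF over Ctrl, of FPKM + 1) of each of the 34 genes with its 95% confidence interval from limma, n = 3 libraries in each group. Red marks the 5 genes called higher, blue the 1 called lower and grey the 28 not called, and the points of 27 genes lie above 0.

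The plot of changes shows that 27 of the 34 point estimates were above 0 and 7 below, with a median log2 change of 0.24, where the median of all tested genes was -0.001. That median was 0.12 without Ctrl 3, 0.34 without Ctrl 2 and between 0.19 and 0.31 without any other 1 library. Of the 34 genes, 10 had groups that did not overlap (29.4%), against 41.4% of all tested genes. In 7 of these 10 every TNF library lay above every Ctrl library, as in 21% of all tested genes, and in 3 every TNF library lay below, as in 20.4%.

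The largest changes were in genes of low level. Pfkfb3 (ENSMUSG00000026773, chromosome 2, 11471433 to 11554077 in GRCm38, minus strand) had 7.29, 6.62 and 7.11 FPKM in TNF libraries 1, 2 and 3, against 3.27, 3.17 and 1.87 FPKM in Ctrl libraries 1, 2 and 3. Values per library are in this order throughout. The TNF libraries were close to each other, Ctrl 3 was the lowest of all, and the groups lay far apart. The means were 7.003 ± 0.348 FPKM in TNF and 2.77 ± 0.778 FPKM in Ctrl (SD, n = 3 in each group, which holds for every mean below), a ratio of 2.53, and the log2 change was 1.11 (SE 0.14, limma adjusted p = 0.00132).

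Ldhb (ENSMUSG00000030246, chromosome 6, 142490249 to 142507957, minus strand) had 6.08, 5.36 and 4.88 FPKM in TNF and 1.44, 2.29 and 1.96 FPKM in Ctrl. Its lowest TNF library lay well above its highest Ctrl library. The ratio of the means was 2.87 and the log2 change 1.16 (SE 0.12, limma adjusted p = 0.000423). Ldhb rested on about 57 to 222 reads per library, the fewest of the 6 called genes.

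Hk2 (ENSMUSG00000000628, chromosome 6, 82725025 to 82774454, minus strand), the hexokinase that is induced in many growing cells, had 33.5, 31.2 and 35.9 FPKM in TNF against 22.8, 23.9 and 21.9 FPKM in Ctrl. The gap between the groups was wider than the range within either. The log2 change was 0.53 (SE 0.06, limma adjusted p = 0.000632). Hk1 (chromosome 10, 62268855 to 62379908, minus strand), the widely expressed hexokinase, had 19.5, 19.1 and 22.2 FPKM in TNF and 16.9, 16.7 and 16.7 FPKM in Ctrl. The Ctrl libraries were nearly equal and TNF 3 was the highest. The log2 change was 0.26 (SE 0.06, limma adjusted p = 0.0171), and it fell short without both Ctrl 1 and TNF 3, the libraries lowest in Lyz2 (limma adjusted p = 0.0886).

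**Figure D2:**
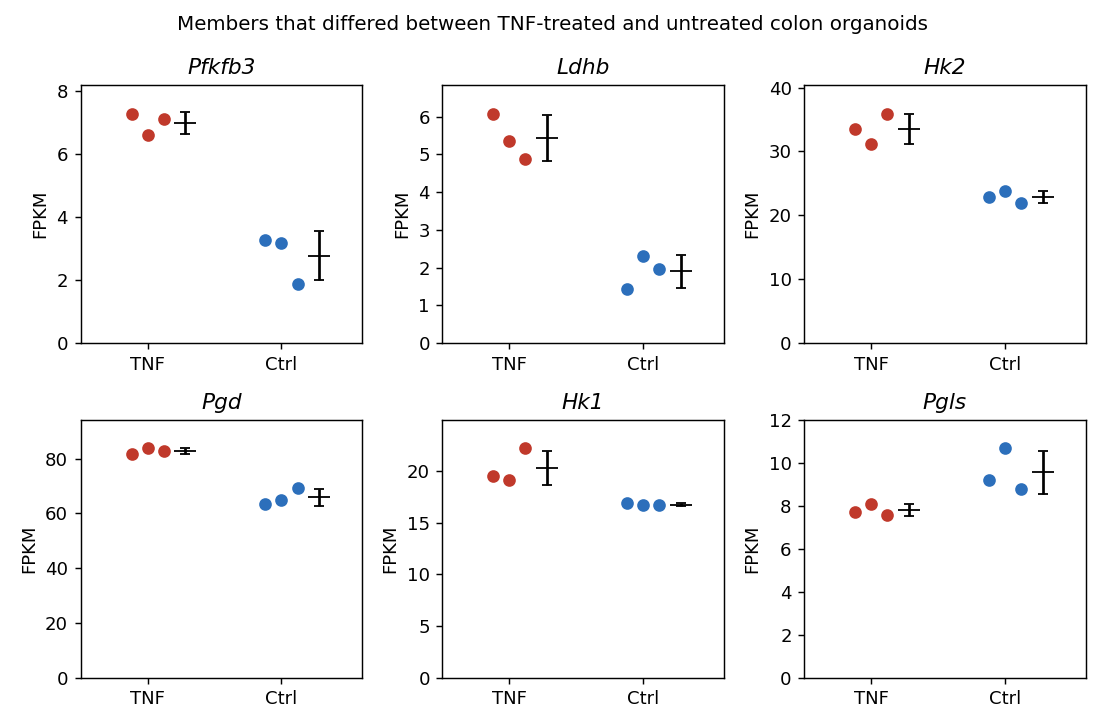
FPKM of the 6 called genes in each of the 3 TNF (red) and 3 Ctrl (blue) libraries, with the mean and SD of each group beside the points; each axis starts at 0. In Pfkfb3 the 3 TNF libraries sit between 6.62 and 7.29 FPKM, all above the Ctrl libraries, and in Pgls the 3 TNF libraries sit below them.

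The stretches before the start of transcription of 6 genes are shown because HIF is known to bind a short DNA word, the hypoxia response element, near many genes of glycolysis. Pfkfb3, Hk2 and Ldhb are genes that rose, Ldha and Pgk1 are abundant genes of the pathway, and Bnip3 is the member that differed most between Ctrl libraries 2 and 3. Each is a run of 150 bases, 5′ to 3′ on the strand of the gene, from the RefSeq promoter table in GRCm38.p6, with no base of an annotated exon. Capitals mark the core ACGTG or GCGTG read on either strand, so that CACGT and CACGC are the same words on the other strand, and overlapping matches were counted as 1 site. The runs for Hk2, Ldhb, Ldha and Pgk1 end at the base before a RefSeq start, that of Pfkfb3 ends 11 and that of Bnip3 13 bases before it.
Pfkfb3 chr2:11502102-11502251 (minus strand): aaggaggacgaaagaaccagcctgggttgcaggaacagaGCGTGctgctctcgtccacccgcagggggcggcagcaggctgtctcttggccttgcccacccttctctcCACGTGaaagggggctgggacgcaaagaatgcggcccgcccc
Hk2 chr6:82774455-82774604 (minus strand): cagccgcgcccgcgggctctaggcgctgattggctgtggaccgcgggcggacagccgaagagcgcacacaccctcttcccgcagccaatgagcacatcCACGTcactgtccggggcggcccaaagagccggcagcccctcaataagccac
Ldhb chr6:142507958-142508107 (minus strand): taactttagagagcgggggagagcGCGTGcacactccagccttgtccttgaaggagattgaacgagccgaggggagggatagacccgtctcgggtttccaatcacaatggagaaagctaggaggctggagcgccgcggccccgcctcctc
Ldha chr7:46845654-46845803 (plus strand): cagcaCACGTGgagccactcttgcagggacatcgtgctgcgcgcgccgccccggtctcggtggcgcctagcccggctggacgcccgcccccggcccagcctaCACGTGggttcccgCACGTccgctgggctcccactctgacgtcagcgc
Pgk1 chrX:106186950-106187099 (plus strand): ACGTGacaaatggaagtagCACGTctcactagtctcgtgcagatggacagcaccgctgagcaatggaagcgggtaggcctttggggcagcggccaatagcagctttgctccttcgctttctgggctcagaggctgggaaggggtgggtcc
Bnip3 chr7:138909520-138909669 (minus strand): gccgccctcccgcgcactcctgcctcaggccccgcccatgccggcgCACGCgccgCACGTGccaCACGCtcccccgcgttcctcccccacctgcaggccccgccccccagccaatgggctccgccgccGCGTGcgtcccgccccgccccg

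These runs held 4 sites in Bnip3, 3 in Ldha, 2 each in Pfkfb3 and Pgk1, and 1 each in Hk2 and Ldhb. Ldha and Pfkfb3 each have another RefSeq start, not printed, with 1 site in the 250 bases before it. Hk1 and Pgd, which also rose, are not printed. For each, the 250 bases before the start with the fewest exon bases held 0 sites. Those before the other start held 2 in Hk1 and 1 in Pgd. In the 250 bases before the start, 38 of the 47 RefSeq starts of 33 members held the core (80.9%), against 38.6% of all 32851 starts and 56.6% of the 11303 starts of tested genes. The share was 16 of 22 starts for glycolysis enzymes, 6 of 7 for pentose phosphate enzymes and 7 of 8 for the hypoxia genes. Some starts of a gene lie so close that their stretches overlap, as in Eno1, Aldoa and Pfkm, and a site there can count more than once. Unlike the printed runs, these stretches can hold exon bases, in G6pdx all 250. At least 2 sites were found in 40.4% of the members' starts, 13.5% of all starts and 24.1% of those of tested genes. The NF-κB motif, the word bound by a family of factors that TNF activates, was found before 1 of the 47 starts, that of Vegfa (2.13%), against 3.90% of all starts and 4.51% of those of tested genes. A match is a description of the letters and not a site shown to be bound.

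Beyond the hexokinases, no further enzyme of the glycolytic chain passed the test, although 12 of the 13 point estimates were above 0 (median log2 change 0.26). The most abundant members of the whole set were Aldoa, Pgk1, Pkm and Ldha. Phosphoglycerate kinase 1 (Pgk1, chromosome X, 106187100 to 106203699, plus strand), which makes ATP, had 368, 317 and 383 FPKM in TNF against 276, 338 and 215 FPKM in Ctrl. TNF 2 lay below Ctrl 2, so the groups overlapped, while TNF 1 and TNF 3 lay above every Ctrl library. The log2 change was 0.38 with a 95% interval of 0.03 to 0.74 (limma adjusted p = 0.114).

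Pkm, the pyruvate kinase of most proliferating tissues, had 339, 291 and 367 FPKM in TNF and 276, 294 and 248 FPKM in Ctrl (log2 change 0.28, limma adjusted p = 0.0729). Aldolase A (Aldoa) had 413, 365 and 434 FPKM in TNF and 345, 397 and 289 FPKM in Ctrl (0.24, limma adjusted p = 0.181). In both genes TNF 2 was the lowest TNF library and lay below Ctrl 2. Aldoa is listed under 2 identifiers, and the one with the higher mean (ENSMUSG00000030695, 374 FPKM against 1.33 FPKM) was used.

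Triose phosphate isomerase (Tpi1) had 244, 217 and 269 FPKM in TNF and 209, 245 and 175 FPKM in Ctrl (limma adjusted p = 0.246). Phosphoglycerate mutase 1 (Pgam1) had 162, 142 and 162 FPKM in TNF and 128, 148 and 103 FPKM in Ctrl (limma adjusted p = 0.111). Enolase 1 (Eno1) had 213, 187 and 224 FPKM in TNF and 175, 205 and 149 FPKM in Ctrl (limma adjusted p = 0.178). In all 3 enzymes TNF 2 was the lowest TNF library, Ctrl 2 the highest and Ctrl 3 the lowest Ctrl library, and Ctrl 2 lay above TNF 2.

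At the committed step, the phosphofructokinase chains differed in level and did not pass the test. The platelet-type chain Pfkp had 25.3, 21.9 and 27.1 FPKM in TNF and 19.6, 22.2 and 16.7 FPKM in Ctrl (log2 change 0.33, interval 0.08 to 0.59, limma adjusted p = 0.0639). The liver-type chain Pfkl had 37.6, 35.4 and 45.1 FPKM in TNF and 38.7, 40.4 and 33.1 FPKM in Ctrl (limma adjusted p = 0.677). The muscle-type chain Pfkm was the lowest of the 3, with 4.48, 5.33 and 4.65 FPKM in TNF and 4.28, 5.08 and 4.97 FPKM in Ctrl (limma adjusted p = 0.936). Glucose phosphate isomerase (Gpi1), which precedes this step, had 123, 113 and 130 FPKM in TNF and 127, 142 and 112 FPKM in Ctrl. It was the only glycolysis enzyme with a point estimate below 0 (-0.05, limma adjusted p = 0.708).

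Gapdh, which joins the upper and lower chain, was listed at 25.6, 10.6 and 12.6 FPKM in TNF and 7.96, 10.4 and 6.93 FPKM in Ctrl, low values beside its neighbours Aldoa and Pgk1. TNF 1 stood apart and the groups did not overlap, but TNF 2 exceeded Ctrl 2 only narrowly (log2 change 0.79, SE 0.29, limma adjusted p = 0.0887). Without TNF 1 the log2 change was 0.43, and without TNF 2 it was 1.03. The copies Gapdh-ps15 and Gapdh-ps16, named after their values were seen, were listed higher than Gapdh itself, at 34.2 to 39.7 and 21.3 to 24.5 FPKM in TNF and at 25.7 to 35.6 and 16.5 to 23.0 FPKM in Ctrl. The level of Gapdh is therefore uncertain, since its reads can be split with near-identical copies. Copies of Eno1, Pgam1, Pgk1 and Ldha are also listed, each far below its parent gene.

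**Figure D3:**
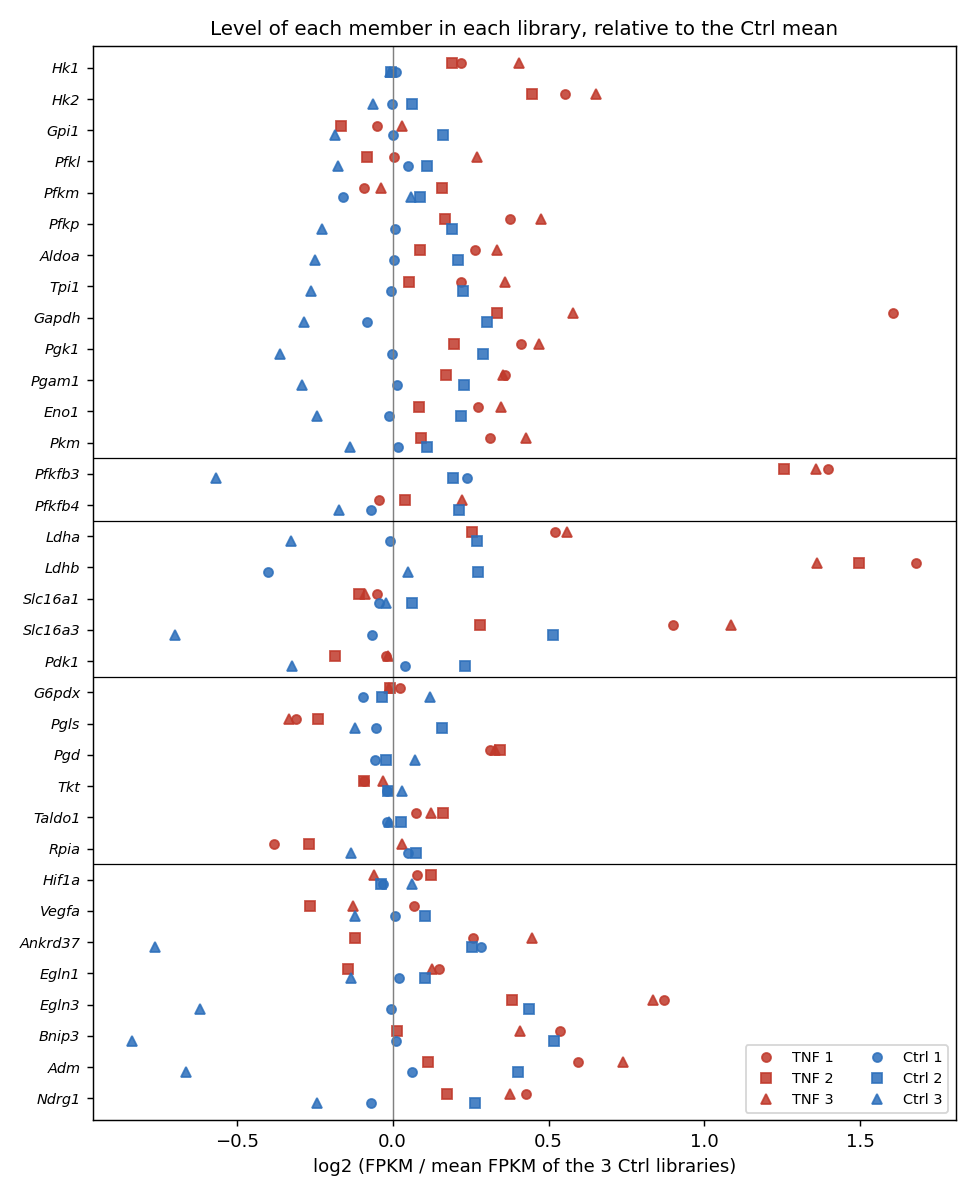
Level of each of the 34 genes in each library as log2 of FPKM over the mean of the 3 Ctrl libraries, TNF in red and Ctrl in blue, with a circle, square and triangle for libraries 1, 2 and 3; lines part the 5 groups of genes. In most glycolysis and hypoxia genes the blue triangle (Ctrl 3) is at the left and the blue square (Ctrl 2) at or right of the red square (TNF 2).

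The other enzyme that makes and removes fructose 2,6-bisphosphate, Pfkfb4, had 1.38, 1.46 and 1.66 FPKM in TNF and 1.36, 1.65 and 1.26 FPKM in Ctrl (limma adjusted p = 0.757). Its groups overlapped, unlike those of Pfkfb3. Pfkfb3 made up 84.1%, 81.9% and 81.0% of the summed FPKM of both genes in TNF and 70.7%, 65.8% and 59.7% in Ctrl. The shares did not overlap, and the exact permutation test gave p = 0.1, the smallest that 3 against 3 libraries allow.

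Among the lactate and pyruvate genes, the A chain of lactate dehydrogenase (Ldha, chromosome 7, 46841475 to 46855627, plus strand), which favours lactate formation, had 426, 354 and 438 FPKM in TNF against 295, 359 and 237 FPKM in Ctrl. TNF 2 lay just below Ctrl 2, and all else was separate. The log2 change was 0.46 with an interval of 0.12 to 0.81 (limma adjusted p = 0.0566). Leaving out Ctrl 2 gave an adjusted p of 0.0144, the lowest among its alternatives, whose highest was 0.262. Ldhb, by contrast, rose in every alternative in which it was tested.

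Per length, Ldhb was a small part of all lactate dehydrogenase RNA in either group. It made up 1.41%, 1.49% and 1.10% of summed Ldha and Ldhb FPKM in TNF and 0.485%, 0.636% and 0.822% in Ctrl (means 1.33% and 0.648%, exact permutation p = 0.1, the smallest possible). The shares in TNF were all above those in Ctrl.

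The monocarboxylate transporters carry lactate across the membrane. Slc16a3 (MCT4), the exporter of glycolytic cells, had 10.7, 6.95 and 12.2 FPKM in TNF and 5.48, 8.18 and 3.54 FPKM in Ctrl (log2 change 0.73, SE 0.27, limma adjusted p = 0.0908). TNF 2 lay below Ctrl 2, as in Ldha. Slc16a1 (MCT1), which in the colon also takes up butyrate, had 42.6, 41.0 and 41.5 FPKM in TNF and 42.8, 46.0 and 43.5 FPKM in Ctrl. Each TNF library was below each Ctrl library, by little (log2 change -0.08, limma adjusted p = 0.230). Pdk1, the kinase that shuts pyruvate dehydrogenase, had 21.1, 18.9 and 21.2 FPKM in TNF and 22.0, 25.1 and 17.1 FPKM in Ctrl, with overlap on both sides (log2 change -0.05, limma adjusted p = 0.792).

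Within the hexokinases, Hk2 made up 63.2%, 62.0% and 61.8% of the summed FPKM of Hk1 and Hk2 in TNF and 57.4%, 58.8% and 56.8% in Ctrl, without overlap. Among the phosphofructokinase chains, Pfkp made up 35.9 ± 1.43% in TNF and 31.5 ± 1.24% in Ctrl, and Pfkl 57.0 ± 1.53% in TNF and 60.7 ± 1.14% in Ctrl. For each of these 3 shares the exact permutation p was 0.1, the smallest possible. The share of Pfkm (7.07% in TNF and 7.81% in Ctrl) and that of Slc16a3 in Slc16a1 and Slc16a3 (19.1% in TNF and 11.3% in Ctrl) overlapped between groups, with exact permutation p = 0.5 and 0.2. These p-values are unadjusted over the families compared, since none can pass with this smallest p.

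**Figure D4:**
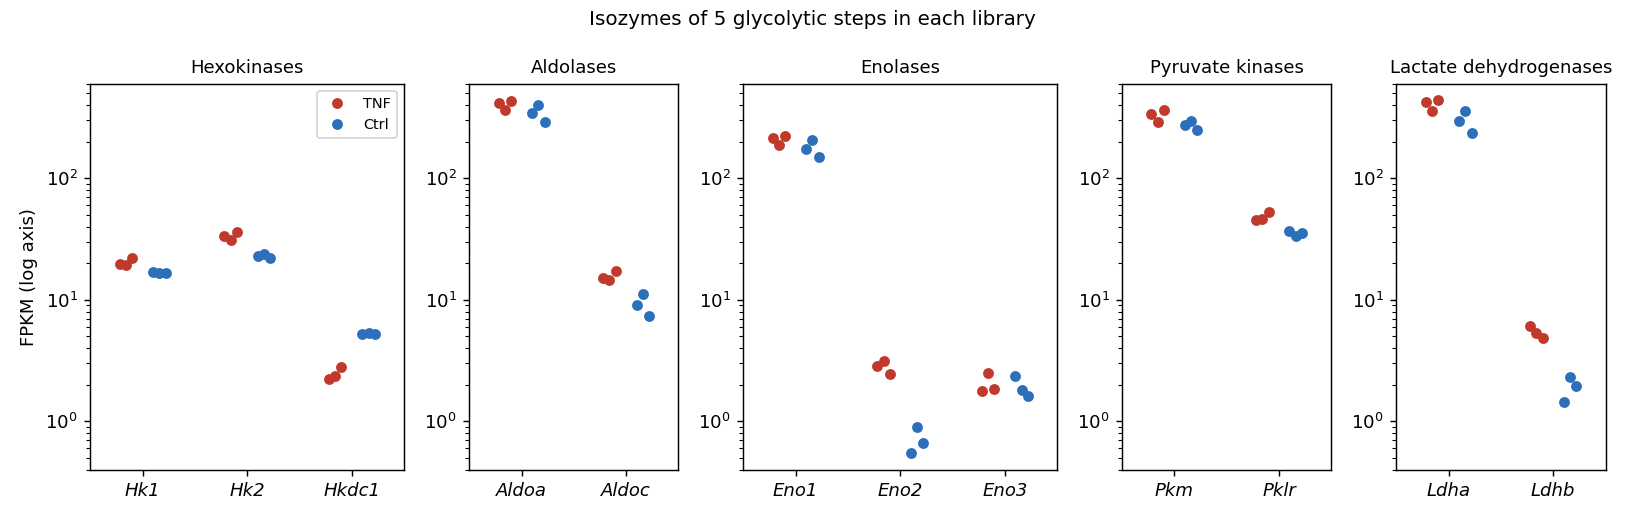
FPKM on a log axis of the isozymes of 5 glycolytic steps in each of the 3 TNF (red) and 3 Ctrl (blue) libraries. The red and blue points lie well apart in Aldoc, which averaged 15.6 FPKM in TNF and 9.198 FPKM in Ctrl, and in Eno2, with 2.82 FPKM in TNF and 0.704 FPKM in Ctrl.

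Pentose phosphate enzymes went both ways, with 1 called higher, 1 called lower and a median log2 change of -0.03 over the 6. Each call was 16.7% of them, where 12.9% of all tested genes were called higher and 11.1% lower. Pgd (ENSMUSG00000028961, chromosome 4, 149149991 to 149166771, minus strand) had 81.8, 83.7 and 82.6 FPKM in TNF against 63.4, 64.9 and 69.3 FPKM in Ctrl. The TNF libraries were almost equal and well above the highest Ctrl library. The log2 change was 0.32 (SE 0.04, limma adjusted p = 0.00167).

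Pgls (ENSMUSG00000031807, chromosome 8, 71592176 to 71601092, plus strand) had 7.73, 8.12 and 7.60 FPKM in TNF and 9.22, 10.7 and 8.81 FPKM in Ctrl. The groups did not overlap, with Ctrl 2 the highest (log2 change -0.26, SE 0.07, limma adjusted p = 0.0341). The call was lost in 7 of its 15 alternatives, with adjusted p between 0.0262 and 0.159, and of the 6 fits without 1 library it was made only without Ctrl 3, where 8.32% of all tested genes were called lower. Of the exonic bases of Pgls, 20.6% lie also in an exon of Fam129c on the same strand, so reads there cannot be assigned to one gene.

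G6pdx, the glucose 6-phosphate dehydrogenase that opens the pathway and limits its rate, had 59.2, 57.9 and 57.8 FPKM in TNF and 54.5, 56.9 and 63.3 FPKM in Ctrl. The TNF libraries lay within the Ctrl range, and the log2 change was 0.00 with an interval of -0.13 to 0.14 (limma adjusted p = 0.974). The non-oxidative enzymes had small differences. Transaldolase (Taldo1) had 132, 140 and 136 FPKM in TNF and 124, 127 and 124 FPKM in Ctrl (log2 change 0.12, limma adjusted p = 0.0698). Transketolase (Tkt) had 82.8, 82.8 and 86.5 FPKM in TNF and 87.2, 87.3 and 90.2 FPKM in Ctrl (-0.07, limma adjusted p = 0.247). Neither gene had overlapping groups, and their differences were in opposite directions. Ribose 5-phosphate isomerase (Rpia) had 4.11, 4.44 and 5.46 FPKM in TNF and 5.54, 5.64 and 4.88 FPKM in Ctrl, with overlap (-0.17, limma adjusted p = 0.249).

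In the hypoxia group, 0 of 8 genes were called, where 12.9% of all tested genes were called higher and 11.1% lower. The groups of all 8 overlapped, where 41.4% of all tested genes had no overlap, while 7 of 8 point estimates were above 0 (median log2 change 0.27). Hif1a, the transcript of the oxygen-regulated factor itself, had 26.7, 27.6 and 24.3 FPKM in TNF and 24.8, 24.7 and 26.5 FPKM in Ctrl (log2 change 0.05, interval -0.09 to 0.18, limma adjusted p = 0.604). Its RNA level says nothing of the protein, which is set mainly by breakdown. No hypoxia gene reached p under 0.05 after adjustment by limma.

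Egln3 (ENSMUSG00000035105, chromosome 12, 54178981 to 54203860, minus strand), a prolyl hydroxylase that HIF induces, had 63.2, 45.2 and 61.7 FPKM in TNF against 34.4, 46.8 and 22.5 FPKM in Ctrl. TNF 1 and TNF 3 were the highest, and TNF 2 lay just below Ctrl 2. The log2 change was 0.74 with an interval of 0.17 to 1.31 (limma adjusted p = 0.0642). Without Ctrl 2 it was 0.98 and passed the test (limma adjusted p = 0.0167), and without Ctrl 3 it was 0.47. Egln1, the main oxygen sensor of the family, had 19.1, 15.6 and 18.8 FPKM in TNF and 17.4, 18.5 and 15.7 FPKM in Ctrl (0.05, limma adjusted p = 0.753).

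Bnip3, a mitochondrial protein of mitophagy, spread most within a group, with 27.1, 18.9 and 24.8 FPKM in TNF and 18.8, 26.8 and 10.5 FPKM in Ctrl. Ctrl 2 was 2.55 times Ctrl 3, more than the ratio of the group means (1.26), and the log2 change of 0.40 had an SE of 0.29 (limma adjusted p = 0.374). It was 0.05 without Ctrl 3 and 0.69 without Ctrl 2. Adm, the vasodilator adrenomedullin, had 3.78, 2.71 and 4.18 FPKM in TNF and 2.62, 3.31 and 1.58 FPKM in Ctrl (0.40, limma adjusted p = 0.193). Ndrg1, a stress-induced gene of differentiating epithelium, had 77.2, 64.8 and 74.5 FPKM in TNF and 54.7, 69.0 and 48.5 FPKM in Ctrl (0.34, limma adjusted p = 0.0915), and passed the test without Ctrl 2 (limma adjusted p = 0.0108). In each of the 3 genes TNF 2 lay below Ctrl 2.

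Vegfa, the vascular growth factor that is a classic HIF target, had 33.2, 26.4 and 29.0 FPKM in TNF and 31.8, 34.1 and 29.2 FPKM in Ctrl (-0.10, limma adjusted p = 0.453). Ankrd37, another HIF target, had 5.30, 4.08 and 6.04 FPKM in TNF and 5.39, 5.29 and 2.61 FPKM in Ctrl (0.21, limma adjusted p = 0.548, and -0.06 without Ctrl 3). Vegfa was the only one of the 8 with a point estimate below 0. Exons of Ankrd37 and Bnip3 share 26.4% and 22.8% of their bases with genes on the other strand. For G6pdx, Gpi1 and Ndrg1 this share was 13.6%, 11.5% and 8.43%, and 15.3% of the exonic bases of Pkm lie in Gm49759 on the same strand. The sources used here do not say whether the libraries kept strand.

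The members' order within a group was alike from gene to gene, a pattern noticed in the values and described here with no test. TNF 2 was the lowest TNF library in 24 of the 34 genes (70.6%), against 29.8% of all tested genes. Ctrl 2 was the highest Ctrl library in 27 (79.4% against 33.4% of all tested genes) and Ctrl 3 the lowest in 26 (76.5% against 31.7%). All 3 places held together in 20 members (58.8%), against 6.56% of all tested genes.

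The pattern was found in 11 of the 13 glycolysis enzymes, the exceptions being Hk1 and Pfkm. Of the hypoxia genes, TNF 2 was lowest in 7 of 8, Ctrl 2 highest in 6 and Ctrl 3 lowest in 7. In the pentose phosphate enzymes TNF 2 was lowest in 0 of 6, and Ctrl 2 highest in 3. The 22 tested further hypoxia targets, none of them members, had TNF 2 lowest in 18, Ctrl 2 highest in 18 and Ctrl 3 lowest in 19. These genes share their libraries and are not independent of each other.

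**Figure D5:**
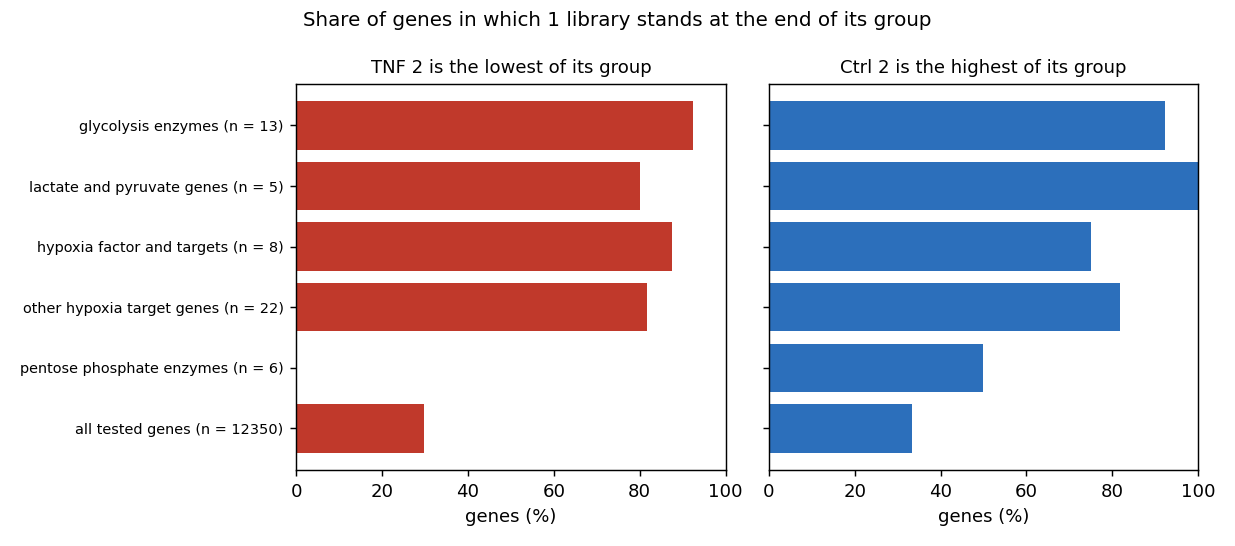
Percentage of genes in which TNF 2 was the lowest TNF library (left, red) and Ctrl 2 the highest Ctrl library (right, blue), for groups of genes and for all 12350 tested genes. The glycolysis enzymes stand at 92.3% in both panels, the pentose phosphate enzymes at 0% and 50%, and all tested genes at 29.8% and 33.4%.

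The plot of places by gene group shows the same for the lactate and pyruvate genes, in which Ctrl 2 was the highest Ctrl library in all 5. In size, the highest Ctrl library was a median of 1.32 times the lowest over the members, against 1.13 times over all tested genes. In TNF it was 1.20 times, against 1.11. The hypoxia genes spread most (1.33 in TNF and 1.74 in Ctrl) and the pentose phosphate enzymes least (1.053 in TNF and 1.124 in Ctrl). Between Ctrl 2 and Ctrl 3, Slc16a3 differed 2.31-fold, Adm 2.09-fold, Egln3 2.08-fold and Ankrd37 2.03-fold. The called genes Hk2 (1.09-fold) and Hk1 (1.00-fold) hardly differed between them, while Pfkfb3 did (1.69-fold). Their depth was alike, at about 29400000 reads in Ctrl 2 and 29800000 in Ctrl 3. What set Ctrl 2 and TNF 2 apart from their groups was not tested.

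The count of called members depended on those libraries. Without Ctrl 2, 14 of the 34 were called higher, with 11.6% of all tested genes called higher in that fit. Pfkp, Aldoa, Pgk1, Pgam1, Eno1, Ldha, Slc16a3, Egln3 and Ndrg1 joined the 5. Without Ctrl 3 the log2 changes were smaller in many of the same genes, for example 0.22 in Pgk1, 0.31 in Ldha, 0.47 in Slc16a3 and 0.19 in Adm. Without TNF 2, 8 were called (9.72% of all tested genes), with Pfkp, Gapdh and Pkm added. Leaving out any of the other 4 libraries gave 5 (9.3% of all tested genes without TNF 1, 9.74% without TNF 3, 9.38% without Ctrl 1 and 10.7% without Ctrl 3). Without both Ctrl 1 and TNF 3, a choice made after seeing the data, 4 members were called higher and 0 lower, with 6.65% of all tested genes called higher and 4.83% lower. The 5 genes called higher in the full set were called in every fit that left out 1 library, with adjusted p of at most 0.0492 for Hk1 and 0.0101 for the others.

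Several isozymes of the glycolytic steps outside the set passed the test. Of 22 other glycolysis and sugar entry genes, 15 were tested. Of these, 4 rose (26.7%, against 12.9% of all tested genes) and 1 fell (6.67%, against 11.1%). Aldoc, the aldolase best known from brain, had 15.1, 14.5 and 17.3 FPKM in TNF and 9.08, 11.1 and 7.39 FPKM in Ctrl (log2 change 0.72, limma adjusted p = 0.00589). Every TNF library lay above every Ctrl library, unlike in the abundant Aldoa. The Aldoc call held in 14 of its 15 alternatives and was lost without both Ctrl 1 and TNF 3 (limma adjusted p = 0.0634).

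Eno2, the enolase of neurons, had 2.84, 3.16 and 2.45 FPKM in TNF and 0.551, 0.904 and 0.657 FPKM in Ctrl (1.16, limma adjusted p = 0.000278). Every Ctrl library lay below 1 FPKM, so Eno2, counted above among the genes that rose, reached the level for testing only through its TNF libraries. Hkdc1, a further hexokinase, had 2.21, 2.35 and 2.79 FPKM in TNF and 5.20, 5.37 and 5.26 FPKM in Ctrl (-0.87, limma adjusted p = 0.000162), the opposite of Hk1 and Hk2. The plot of isozymes places these genes beside their major forms. Pklr, the pyruvate kinase of liver and red cells, averaged 48.2 ± 3.78 FPKM in TNF and 35.3 ± 1.94 FPKM in Ctrl (0.44, limma adjusted p = 0.00250). The glucose transporter Slc2a1 averaged 42.1 ± 3.46 FPKM in TNF and 32.8 ± 4.60 FPKM in Ctrl (0.35, limma adjusted p = 0.0373), a call that was lost in 4 of the 6 fits without 1 library.

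Of all tested genes, 12.9% were called higher and 11.1% lower. Gluconeogenesis, the pathway opposed to glycolysis, had 5 of 7 genes tested, of which 0 rose and 2 fell (40%). These were Pck2, the mitochondrial phosphoenolpyruvate carboxykinase (7.13 ± 0.726 FPKM in TNF and 9.35 ± 0.555 FPKM in Ctrl), and G6pc3, the widely expressed glucose 6-phosphatase (11.9 ± 0.906 FPKM in TNF and 14.8 ± 1.33 FPKM in Ctrl). The others tested were not called. Fbp2, the most abundant (log2 change 0.06), and Pck1 (0.18, without overlap) had point estimates above 0, and Pcx below (-0.10). Of 11 tested genes of pyruvate entry into mitochondria, the carrier subunit Mpc1 rose (log2 change 0.26) and the pyruvate dehydrogenase kinase Pdk3 fell (-0.30). The calls of G6pc3 and Mpc1 were each lost in 4 of the 6 fits without 1 library. Exons of Mpc1 and Pklr share 23.1% and 22.2% of their bases with genes on the other strand.

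Other NADPH and ribose genes also went both ways, with 2 of 10 tested genes higher and 4 lower. These shares were 20% and 40%, against 12.9% and 11.1% of all tested genes. Cytosolic isocitrate dehydrogenase (Idh1), another source of NADPH, had 250, 263 and 240 FPKM in TNF and 195, 197 and 203 FPKM in Ctrl (0.34, limma adjusted p = 0.00184). Malic enzyme (Me1) averaged 22.6 FPKM in TNF and 19.0 FPKM in Ctrl (0.23, limma adjusted p = 0.0198). The rise of Idh1 was of about the size of that of Pgd. The genes that fell were Prps2, which makes the ribose donor for nucleotides (-0.37), Shpk (-0.35) and Rbks (-0.37), kinases of small sugars, and Nnt, the mitochondrial transhydrogenase (-0.67). The level of Nnt is uncertain, since 47.4% of its exonic bases lie in a second Nnt gene model. The calls of Rbks, Nnt and Me1 were lost in 4, 3 and 3 of the 6 fits without 1 library.

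Around HIF, 1 of 7 further pathway genes passed the test (14.3% called lower, against 11.1% of all tested genes). Epas1, the gene of HIF-2α, had 7.36, 7.41 and 7.22 FPKM in TNF and 8.74, 9.60 and 9.11 FPKM in Ctrl (-0.29, limma adjusted p = 0.00483). The TNF libraries were nearly equal and below every Ctrl library. Of 22 tested further hypoxia targets, P4ha2, a collagen prolyl hydroxylase (3.19 ± 0.298 FPKM in TNF and 2.02 ± 0.348 FPKM in Ctrl), and Bnip3l, the relative of Bnip3 (28.5 ± 1.87 FPKM in TNF and 23.0 ± 2.88 FPKM in Ctrl), rose. Carbonic anhydrase 12 (Car12) fell, with 10.5, 10.0 and 10.3 FPKM in TNF and 15.01, 14.6 and 15.8 FPKM in Ctrl (-0.51, limma adjusted p = 0.000211). The Bnip3l call was lost in 5 of the 6 fits without 1 library and that of P4ha2 in 1. Of these 22 targets, 9.09% were called higher and 4.55% lower, against 12.9% and 11.1% of all tested genes.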

How the data were processed

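Messenger RNA of 3 TNF and 3 Ctrl libraries was measured by RNA sequencing. The authors deposited 1 table with a value per gene and library. The deposited values were taken as FPKM from their size, since each times the exonic length sums to about 9.59e+08 to 9.64e+08 per library. Per the submitters' processing notes, cutadapt 1.9, FastQC and the build GRCm38 were used; the aligner, the counter and the treatment of shared reads are not given in the sources used here. Gene positions and lengths came from GENCODE on GRCm38, in which 29862 of 29940 gene identifiers were found. Depth was read from the commonest low value of genes with 1 exon and 1 transcript of at least 300 bases. That value was sought only within a preset range, so the estimates of depth could not fall outside the matching range. Without deposited counts, precision was taken from the spread between libraries.

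The 12350 genes that averaged 1 FPKM or more were compared as log2(FPKM + 1) with limma 3.58.1 in R 4.3.3 (group only, mean-dependent prior variance, two-sided, Benjamini-Hochberg adjustment over all tested genes, threshold 0.05). The procedure was tested on simulated data. Shares of isozymes were compared by exact permutation tests. All 34 members are named whatever their result; of other genes of the pathways, those past the threshold were named, up to 6 per list. For a symbol on 2 lines, the line with the higher mean was used. Members and lists were chosen with earlier results of these data known. Gckr was not analysed here, and 1 other gene of the pathway lists and 1 marker are not reported here. Alternatives were other pseudocounts, filters, scalings and priors, a replicate block, and leaving out each library.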

Additional observations from a re-analysis of the deposited data

How the results depend on the processing

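The members called higher were 5, and 4 to 7 with other pseudocounts, filters, scalings and priors: with a filter at a mean of 5 FPKM Pfkfb3 and Ldhb were not tested and Ldha was called, and quantile normalization added Pkm and Ldha. Without 1 library the count ranged from 5 to 14. Members called lower were 1, but 0 without the filter and 0 to 1 without 1 library. Over all tested genes, leaving out 1 library gave 1149 to 1430 higher and 913 to 1177 lower genes, the fewest lower ones without Ctrl 1. Leaving out both Ctrl 1 and TNF 3, chosen after seeing the data, gave 4 members higher and 0 lower, and 821 and 596 of all tested genes; the cause was not tested. The labels do not say whether libraries of the same replicate number were paired. Such libraries did not deviate alike from their group means (correlations of deviations -0.004, -0.101 and 0.005 over all tested genes). Over the members these correlations were -0.046, -0.765 and -0.497 for replicates 1, 2 and 3. With the replicate block the members called were 5 higher and 1 lower, and all tested genes 1256 and 1004. Of the single-gene results under the other settings, 652 kept direction and call, 15 gained a call, 50 lost one and 13 uncalled ones changed sign, Ankrd37 among them; no called gene reversed. The differences in isozyme shares kept their direction in each fit without 1 library. Scaling moved the median log2 change of all genes by at most 0.014. Genes near 1 FPKM rest on few reads, and strand and shared reads limit Gapdh, Pgls, Bnip3 and Ankrd37.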
